A study of Mus musculus with 8 samples.

Results

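Histone methyltransferases and demethylases are the enzymes that add methyl groups to histone lysines and take them off again. A set of 43 such genes was examined, with the noncatalytic PRC2 subunits and SET-domain relatives included. They were chosen by symbol, and the estimated reads of every transcript with a member's symbol were summed. All 43 were present among the 53392 genes of the files and all passed the filter on low counts, as did 20097 genes in all. By role, 26 were methyltransferases, their complex partners or related SET-domain proteins, and 17 were demethylases. The members held 347 of the 136202 transcripts in the files.

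The samples were 8 RNA-seq libraries from the cerebral cortex of newborn (postnatal day 0) mice, all on the FVB/N strain background. Of these, 4 came from mice with the R342X mutation of Phf6 and 4 from wild-type mice, and the aim was to find which cortical genes are expressed differently with the mutation. Phf6 lies on the X chromosome and encodes a nuclear protein with PHD-type zinc fingers. The labels give neither sex, litter nor batch, nor whether each library is a separate animal, so p-values measure the spread between these libraries, which may be technical. The libraries held between 30469745 and 74266937 estimated reads, and the shallowest wild-type library (48841467) was deeper than the deepest mutant one (39453169).

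Phf6 itself stood at 42.6, 39.3, 43.1 and 43.6 CPM in mutant replicates 1 to 4 and at 91.9, 77.8, 74.3 and 72.1 CPM in wild-type replicates 1 to 4 (log2 fold change -0.90 ± 0.08, adjusted p = 0.00226). CPM is the read count scaled to a common library total, here after TMM scaling, and every log2 fold change is mutant over wild type with its standard error. On the first principal component of all tested genes, with 35.3% of the variance, the libraries separated into mutants 1 to 3 with wild type 1 (set 1) and mutant 4 with wild types 2 to 4 (set 2). The labels name nothing that matches this split. Each set holds only 1 library of one genotype, so genotype was fitted alone and again with the library set as a term. Markers of cortical neurons, radial glia and intermediate progenitors were detected in every library, as the tissue label has it.

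Each group of these enzymes works on particular residues. Methylation of histone H3 at lysine 4 (H3K4) marks promoters and enhancers, H3K36 methylation marks transcribed gene bodies, and H3K9 and H3K27 methylation mark silenced chromatin. In the developing cortex, the balance of these marks accompanies the passage from dividing progenitors to neurons, and mutations in several of these enzymes cause neurodevelopmental disorders in people.

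No member was called between genotypes at an adjusted p under 0.05 with genotype alone (0 of 43; 4 of 20097 genes were called, 0.0199%). At an unadjusted p under 0.05 there were 5 members (Kdm6a, Jmjd1c, Kdm1a, Kdm5a and Kdm3a), where 13.7% of all tested genes passed, so this count was no larger a share than the background. All 5 are demethylases and all 5 had lower means in mutants, as had 6.84% of all tested genes at that threshold. Fold changes lay below 0 for 24 members and above 0 for 19, with a median of -0.01 on the log2 scale against 0.00 over all tested genes.

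The fold change was within 0.3 of 0 on the log2 scale (1.23-fold) in each of the 43 members. Its 95% interval lay inside ±0.3 for 30 members and inside ±0.5 (1.41-fold) for all 43. The narrowest limits were those of Ehmt2, from -0.07 to 0.09.

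**Figure D1:**
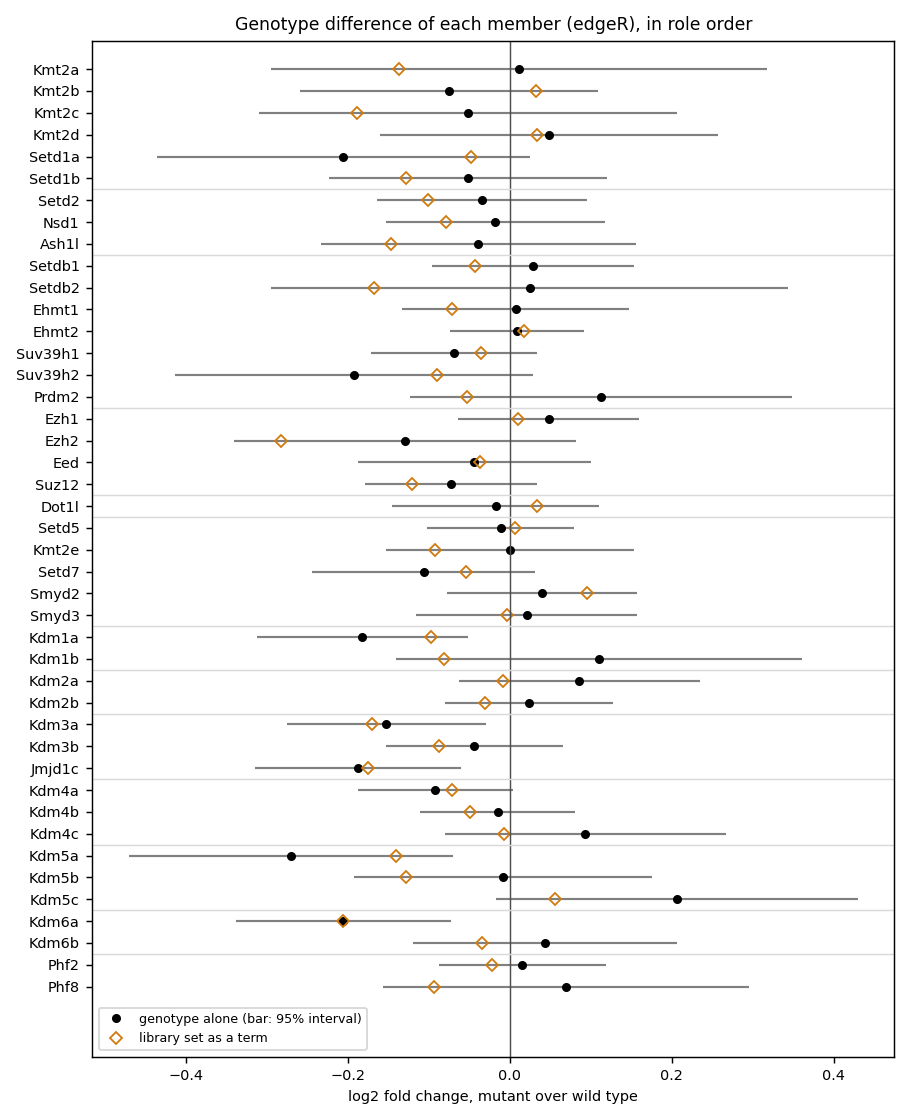
Log2 fold change of each member, mutant over wild type, with members in role order from H3K4 methyltransferases at the top to PHF2 and PHF8 at the bottom. Black points and bars are the genotype-alone estimates with 95% intervals, and open diamonds are the estimates with library set as a term. No black point lies beyond 0.3, and most diamonds lie to the left of their black point, with 35 of 43 below 0.

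With library set as a term, 121 genes were called (0.602%), 73 of them lower in mutants (0.363%), and 1 member was among them: Ezh2. In that fit 35 of 43 members (81.4%) had fold changes below 0, against 51.5% of all tested genes, and their median was -0.07. That background was not matched for gene length, and most members are long. The highest wild type was replicate 1 in 67.4% of members and 64.1% of coding genes at least as long as the median member. Whether long genes in general shift alike in this fit was not tested. At an unadjusted p under 0.05 this fit had 12 of 43 members, a larger share than the 13.7% of all tested genes that passed. Without wild-type replicate 1 the members' median in this fit was -0.01 and 24 were below 0, an estimate that rests on mutant 4 alone against 3 wild types. Without mutant replicate 4 the median was -0.12, which rests on wild type 1 alone against 3 mutants.

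PRC2, the complex that methylates H3K27, has a catalytic subunit (Ezh2 or Ezh1) and the core partners Eed and Suz12. Ezh2 is the form of dividing cells and Ezh1 that of mature ones. Ezh2 (chr6:47530139-47595341, minus strand) was at 77.0, 73.7, 72.5 and 61.4 CPM in mutants 1 to 4 and at 92.5, 72.9, 69.7 and 76.4 CPM in wild types 1 to 4. Mutant 4 was the lowest of the 8 libraries and wild type 1 the highest, and the other 6 overlapped. With genotype alone its log2 fold change was -0.13 ± 0.10 (adjusted p = 0.537).

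With library set as a term the Ezh2 fold change was -0.28 ± 0.04 (adjusted p = 0.025, which takes the data-derived sets as known). Within set 1 the mean log2 difference was -0.31, and wild type 1 was above the 3 mutants. Within set 2 it was -0.25, and mutant 4 was below the 3 wild types. The call was lost without mutant 2 (-0.27, adjusted p = 0.0777), without mutant 4 (-0.31, adjusted p = 0.0719) and without wild type 1 (-0.24, adjusted p = 0.264), while the size of the fold stayed similar. In the last of these, set 1 holds only mutants and the estimate rests on mutant 4 alone against 3 wild types. Without mutant 4 it rests on wild type 1 alone against 3 mutants. The call was also lost with library set and offsets for transcript length together (-0.22, adjusted p = 0.174), and with those offsets and genotype alone the value was -0.05. In the authors' deposited table Ezh2 had a log2 fold change of -0.18 with an adjusted p of 0.0351.

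The other 3 core subunits differed less than Ezh2 on CPM in both edgeR fits. With offsets for transcript length the order was the reverse for Eed, which was at -0.36 (adjusted p = 0.222) with genotype alone where Ezh2 was at -0.05. Suz12 (chr11:79993106-80034123, plus strand) was at 76.7, 77.8, 77.4 and 71.4 CPM in mutants and at 82.9, 78.7, 76.1 and 81.0 CPM in wild types (log2 fold change -0.07 ± 0.05, adjusted p = 0.5). Its value with library set as a term was -0.12 ± 0.04 (adjusted p = 0.183). Mutant 4 was again the lowest library, and mutants 1 to 3 were above wild type 3. Eed (chr7:89954654-89980983, minus strand), which reads the H3K27 mark, was at 22.8, 19.7, 19.8 and 20.04 CPM in mutants and at 20.5, 21.9, 20.96 and 21.6 CPM in wild types. Mutant 1 was the highest of all 8, and the difference was -0.04 ± 0.07. Ezh1 (chr11:101191115-101226463, minus strand) was at 43.4, 43.2, 45.2 and 42.0 CPM in mutants and at 44.0, 40.4, 43.1 and 40.6 CPM in wild types (0.05 ± 0.05), and the genotypes overlapped throughout.

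How well reads can be told apart between Ezh2 and Ezh1 is visible in their coding sequences, where the longest identical run is 17 bases near the 3′ end of both. The stretches below show that run in capitals with its coding surroundings, each within 1 exon of GRCm38 (GENCODE M21), at chr6:47530544-47530599 and chr11:101192942-101192997, both minus strand, written 5′ to 3′ on the gene's own strand.
Ezh2: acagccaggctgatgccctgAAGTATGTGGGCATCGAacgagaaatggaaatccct
Ezh1: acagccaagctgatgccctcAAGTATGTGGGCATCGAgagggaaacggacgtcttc
No word of 31 bases was shared between the longest coding sequences of this pair.

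The ratio of Ezh2 to Ezh1, which falls as cortex matures, gave different answers by unit. On gene TPM, a per-length unit, its log2 value was 1.89 ± 0.21 in mutants and 1.92 ± 0.17 in wild types (SD, n = 4 each), a difference of -0.03 (exact two-sided permutation test, p = 0.771). On CPM the difference was -0.18 (exact permutation p = 0.114). Restricted to protein-coding transcripts, a form added after the data were seen, the log2 ratio was 1.28, 1.25, 1.16 and 1.16 in mutants and 1.59, 1.46, 1.33 and 1.59 in wild types. All mutants then lay below all wild types, with a difference of -0.28 (exact permutation p = 0.0286, the smallest that 70 assignments can give, and 0.0857 adjusted over the 3 forms).

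**Figure D2:**
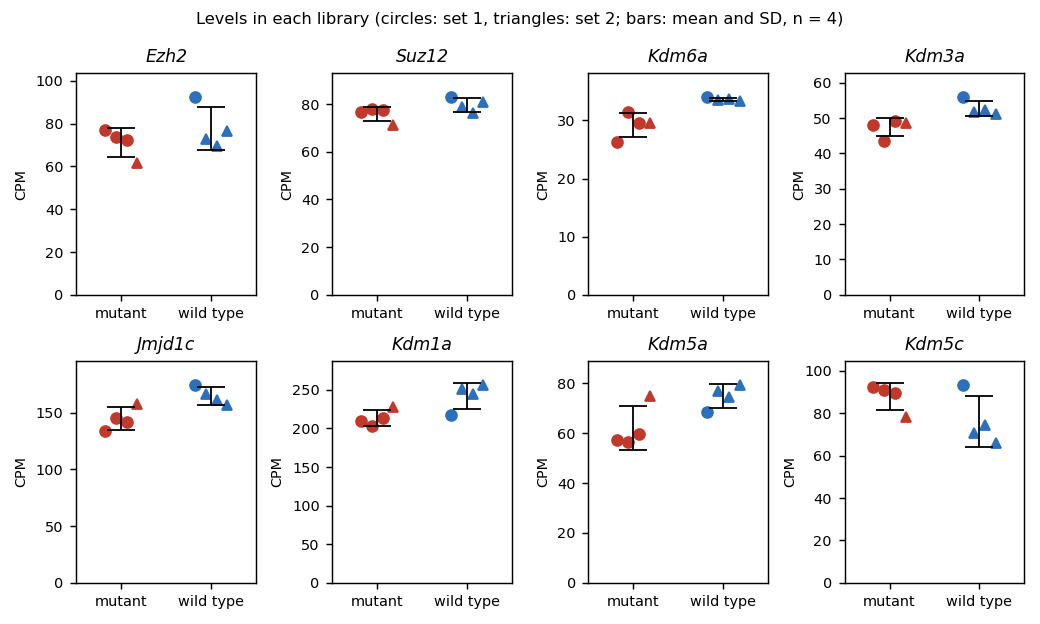
CPM in each library for 8 members (Ezh2, Suz12, Kdm6a, Kdm3a, Jmjd1c, Kdm1a, Kdm5a, Kdm5c), with mutants in red and wild types in blue, circles for set 1, triangles for set 2, and bars for mean and SD. Mutant and wild-type libraries are fully separate for Kdm6a and Kdm3a, and mutant 4 and wild type 1 stand away from their genotypes for Kdm5a, Ezh2 and Kdm5c.

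Among demethylases, the smallest p belonged to Kdm6a (UTX), which removes methyl groups from H3K27 and so acts against PRC2. Kdm6a (chrX:18162575-18279936, plus strand) was at 26.3, 31.4, 29.5 and 29.6 CPM in mutants and at 34.0, 33.5, 33.7 and 33.4 CPM in wild types. All mutants lay below all wild types, and the wild types were within 1 CPM of each other. The log2 fold change was -0.21 ± 0.06 in both edgeR fits, with adjusted p = 0.244 for genotype alone and 0.135 with library set. DESeq2 called it (-0.21, adjusted p = 0.0496), in a fit that called 401 genes (2.48%). The authors' deposited table did not call it (-0.06, adjusted p = 0.355). How the folds of that table were estimated, and whether they were shrunken, is not given in the sources used here. Their size is therefore not directly comparable with edgeR's, for this or any other member. Kdm6b (JMJD3), its inducible relative, had a log2 fold change of 0.04 ± 0.07.

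Genotypes did not overlap in 2 of 43 members, Kdm6a and Kdm3a, both lower in mutants, while 6.15% of all tested genes separated the genotypes in one direction or the other, 3.2% with mutants lower and 2.95% with mutants higher. Kdm3a, which removes H3K9 methylation, was at 48.1, 43.6, 49.2 and 48.7 CPM in mutants and at 56.0, 51.6, 52.2 and 51.1 CPM in wild types (-0.15 ± 0.06, adjusted p = 0.297). Jmjd1c, a JmjC-domain relative of Kdm3a, was at 133.7, 145.5, 141.8 and 158.2 CPM in mutants and at 174.6, 166.7, 161.3 and 156.9 CPM in wild types. Only mutant 4 reached into the wild-type range, and the difference was -0.19 ± 0.06 (adjusted p = 0.247). Kdm3b, the third of the family, differed by -0.04 ± 0.05.

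Jmjd1c was called in 3 other treatments of the data, namely without mutant replicate 4 (-0.23, adjusted p = 0.0446), in DESeq2 with length offsets (-0.24, adjusted p = 0.0428) and in the authors' deposited table (-0.22, adjusted p = 0.0112). That deposited table called 417 of 14991 genes (2.78%), 198 of them lower in mutants (1.32%), and 3 members were among the lower ones: Jmjd1c, Setd2 (-0.17, adjusted p = 0.0142) and Ezh2.

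The KDM5 enzymes erase H3K4 methylation. Kdm5a had the largest fold change of the 43 genes, -0.27 ± 0.09 (adjusted p = 0.271). It was at 57.2, 56.6 and 59.6 CPM in mutants 1 to 3 but 75.0 CPM in mutant 4, and at 68.3, 77.0, 74.6 and 79.4 CPM in wild types. Mutant 4 lay inside the wild-type range, and wild type 1 was the lowest wild type. Without mutant replicate 4 Kdm5a was called (-0.37, adjusted p = 0.0227), as were 720 genes (3.58%), and with library set as a term the value was -0.14 (adjusted p = 0.224). Kdm5b differed by -0.01 ± 0.08 with genotype alone and by -0.13 ± 0.05 with library set as a term (adjusted p = 0.243).

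Kdm5c, whose loss in people causes X-linked intellectual disability, had the largest difference with a higher mean in mutants, 0.21 ± 0.10 (adjusted p = 0.391). Its levels were 92.3, 90.8, 89.7 and 78.3 CPM in mutants and 93.4, 70.9, 74.3 and 65.9 CPM in wild types. Wild type 1 was the highest of all libraries, and the value with library set as a term was 0.06 ± 0.05.

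Of the LSD1-type enzymes, which use flavin rather than the JmjC domain, Kdm1a was at 209.7, 203.4, 213.6 and 227.5 CPM in mutants and at 217.3, 250.6, 244.6 and 256.4 CPM in wild types (-0.18 ± 0.06, adjusted p = 0.262). Wild type 1 fell within the mutant range, and with library set the difference was -0.10 ± 0.04 (adjusted p = 0.294). Its paralog Kdm1b differed by 0.11 ± 0.11.

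The remaining demethylases differed less. In the KDM2 pair, which act on H3K36, Kdm2a was at 99.9, 92.7, 91.7 and 84.4 CPM in mutants and at 96.8, 84.4, 84.5 and 81.9 CPM in wild types (0.09 ± 0.07), and Kdm2b differed by 0.02 ± 0.05. In the KDM4 group, which act on H3K9 and H3K36, Kdm4a was at 166.9, 172.3, 162.3 and 178.5 CPM in mutants and at 181.8, 187.2, 179.2 and 176.7 CPM in wild types (-0.09 ± 0.04, adjusted p = 0.378). Kdm4b was at 131.3, 133.5, 134.5 and 126.6 CPM in mutants and at 137.2, 131.3, 136.3 and 126.4 CPM in wild types, nearly the same range, and Kdm4c differed by 0.09 ± 0.08.

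Phf8, an X-linked eraser of repressive methylation, was at 30.6, 28.4, 27.5 and 23.1 CPM in mutants and at 30.8, 24.0, 25.0 and 24.8 CPM in wild types (0.07 ± 0.10). Mutant 4 was its lowest library. Phf2 differed by 0.02 ± 0.05.

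On the methyltransferase side no member passed an unadjusted p of 0.05 with genotype alone. The H3K4 group had 4 of 6 members below 0 with a median of -0.05. Setd1a, a catalytic subunit of a COMPASS complex and a schizophrenia risk gene in people, had the smallest p of the group. It was at 74.3, 82.3 and 79.6 CPM in mutants 1 to 3, at 106.0 CPM in mutant 4, and at 87.1, 100.8, 104.2 and 102.2 CPM in wild types (-0.21 ± 0.10, adjusted p = 0.403). Mutant 4 was the highest library of all 8. Setd1a was called without that library (-0.33, adjusted p = 0.0389), whereas with library set as a term the value was -0.05.

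Setd1a was also the member whose reads were hardest to assign, since 51.8% of its 31-base words occur in transcripts of other genes, nearly all in the overlapping gene Gm49388. Gm49388 was estimated at 10.9, 8.44, 9.07 and 5.02 CPM in mutants and at 0.143, 5.38, 3.17 and 9.41 CPM in wild types, and its part in the Setd1a values was not tested. Kmt2b, the next by p, was at 126.8, 131.4, 116.5 and 157.5 CPM in mutants and at 131.3, 139.6, 141.6 and 148.0 CPM in wild types (-0.08 ± 0.08). With genotype alone, its sister enzymes Kmt2a (0.01 ± 0.14), Kmt2c (-0.05 ± 0.12) and Kmt2d (0.05 ± 0.09), and Setd1b (-0.05 ± 0.08), had differences within their standard errors. With library set as a term the values were -0.14 ± 0.10 for Kmt2a, -0.19 ± 0.08 for Kmt2c (adjusted p = 0.343), 0.03 ± 0.09 for Kmt2d and -0.13 ± 0.06 for Setd1b (adjusted p = 0.414).

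With genotype alone the H3K36 methyltransferases were all slightly below 0: Setd2 -0.03 ± 0.06, Nsd1 -0.02 ± 0.06 and Ash1l -0.04 ± 0.09. They were further below 0 with library set as a term. There Setd2 was at -0.10 ± 0.04 (adjusted p = 0.335), Nsd1 at -0.08 ± 0.05 and Ash1l at -0.15 ± 0.06 (adjusted p = 0.315). Setd2, which writes H3K36 trimethylation along transcribed genes, was at 148.9, 149.9, 144.1 and 140.6 CPM in mutants and at 165.9, 147.0, 147.8 and 136.8 CPM in wild types. Wild type 1 was the highest and wild type 4 the lowest. With offsets for transcript length its DESeq2 value was -0.17 (adjusted p = 0.0862), a fit in which it was not called.

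Of the 7 H3K9 methyltransferases, 2 lay below 0. Suv39h2 had the smallest p of the group, with 7.30, 7.20, 6.84 and 8.85 CPM in mutants and 8.12, 8.85, 8.22 and 9.29 CPM in wild types (-0.19 ± 0.10, adjusted p = 0.412). Only mutant 4 lay within the wild-type range. Suv39h1, its X-linked paralog, was at 41.0, 40.4, 40.9 and 42.0 CPM in mutants and at 41.2, 43.9, 43 and 44.3 CPM in wild types (-0.07 ± 0.05, adjusted p = 0.505).

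Ehmt2 (G9a), which with Ehmt1 (GLP) writes H3K9 mono- and dimethylation, was the steadiest member. It was at 333.2, 334.8, 346.0 and 341.2 CPM in mutants and at 332.8, 328.0, 346.4 and 339.6 CPM in wild types (0.01 ± 0.04). Ehmt1 differed by 0.01 ± 0.06, Setdb1 by 0.03 ± 0.06 and Prdm2 by 0.11 ± 0.11. Setdb2 was at 4.46, 4.86, 4.63 and 3.95 CPM in mutants and at 5.75, 3.95, 3.97 and 3.98 CPM in wild types (0.02 ± 0.14), with wild type 1 alone above the rest.

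Dot1l, the H3K79 methyltransferase, was at 114.1, 121.4, 109.4 and 132.4 CPM in mutants and at 119.9, 122.1, 121.6 and 119.5 CPM in wild types (-0.02 ± 0.06). The 4 wild types were tightly grouped and the mutants lay on both sides of them. Among other SET-domain proteins, Setd7 was at 58.0, 56.6, 53.4 and 65.7 CPM in mutants and at 63.0, 63.8, 62.7 and 62.1 CPM in wild types (-0.11 ± 0.06, adjusted p = 0.453). Mutant 4 was above every wild type and mutants 1 to 3 were below. Smyd2 was at 68.1, 67.4, 70.1 and 70.9 CPM in mutants and at 61.6, 69.9, 70.6 and 66.7 CPM in wild types (0.04 ± 0.05). With genotype alone Setd5 differed by -0.01 ± 0.04, Kmt2e by 0.00 ± 0.07 and Smyd3 by 0.02 ± 0.06. With library set as a term Kmt2e was at -0.09 ± 0.05 (adjusted p = 0.398) and Smyd2 at 0.10 ± 0.04 (adjusted p = 0.361).

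**Figure D3:**
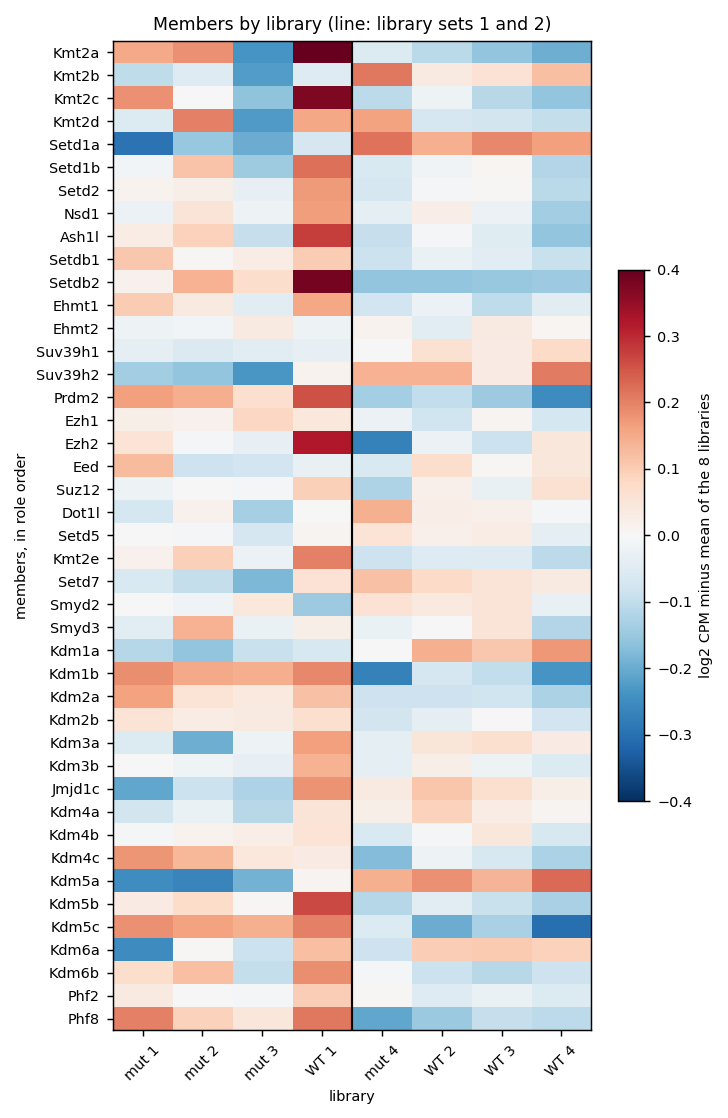
Log2 CPM of each member minus its mean over the 8 libraries, in role order, with set 1 left of the line and set 2 right of it. Wild type 1 is the reddest column for most rows, being the highest wild type in 29 of 43 members, and mutant 4 resembles the other set 2 columns more than the other mutants in rows such as Setd1a, Kdm5a and Kdm1b.

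Wild type 1 had the highest wild-type level in 29 of 43 members (67.4%) and wild type 4 the lowest in 27 (62.8%), where the shares over all tested genes were 37.6% and 27.5%. Mutant 4 was the lowest mutant in 20 members (46.5%, against 36.3%). Set 2 minus set 1, adjusted for genotype, was -0.40 for Setdb2, -0.37 for Kdm1b and -0.34 for both Prdm2 and Kmt2a on the log2 scale, and 0.33 for Setd1a and 0.27 for Kdm5a. Those values exceed the genotype difference of the same gene in both edgeR fits, apart from Kdm5a, where both were 0.27 in size with genotype alone. The sets were drawn from the same expression values, and the genes named have the largest set differences in each direction. Their size beside genotype is therefore partly built in.

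Of the 43 members, 4 are on the X chromosome: Suv39h1, Kdm5c, Kdm6a and Phf8. Kdm5c and Kdm6a have Y-linked partners, Kdm5d and Uty, which were not members. Kdm5d was at 33.7, 36.8, 36.4 and 40.1 CPM in mutants and at 73.97, 45.9, 39.4 and 39.3 CPM in wild types (-0.43 ± 0.18, adjusted p = 0.344). Uty was at 17.9, 14.5, 15.6 and 11.6 CPM in mutants and at 33.8, 13.5, 12.7 and 12.2 CPM in wild types (-0.27 ± 0.31, adjusted p = 0.699). Wild type 1 was by far the highest library for both. Xist, which is transcribed from the inactive X, was at most 0.664 CPM in any library, while Kdm5d and Uty were detected in every library. That is the pattern of male tissue, though the labels give no sex.

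The X and Y partners share coding stretches longer than a word of 31 bases. Their longest identical coding runs are 35 bases for Kdm5c and Kdm5d and 61 bases for Kdm6a and Uty, shown in capitals below with 20 bases on either side (GRCm38, GENCODE M21). The Kdm6a stretch is chrX:18246980-18247080, plus strand, and the Uty stretch chrY:1169152-1169252, minus strand, each in 1 coding exon. The Kdm5c and Kdm5d stretches each span 2 coding exons on the plus strand, chrX:152248501-152248547 with chrX:152248662-152248689 and chrY:916714-916760 with chrY:916846-916873.
Kdm5c: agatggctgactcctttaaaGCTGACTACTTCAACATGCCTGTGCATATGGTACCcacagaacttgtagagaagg
Kdm5d: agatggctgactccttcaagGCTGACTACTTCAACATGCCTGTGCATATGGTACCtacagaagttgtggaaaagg
Kdm6a: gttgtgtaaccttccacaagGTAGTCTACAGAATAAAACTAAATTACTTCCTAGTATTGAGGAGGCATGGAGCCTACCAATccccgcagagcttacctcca
Uty: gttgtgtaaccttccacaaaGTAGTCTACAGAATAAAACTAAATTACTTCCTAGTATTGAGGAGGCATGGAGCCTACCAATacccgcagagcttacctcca
Over whole coding sequences the sharing was small. Of 31-base words, 1.65% of those of Kdm6a were found in Uty and 0.108% of those of Kdm5c in Kdm5d.

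Over all transcripts, the median member shared 1.18% of its 31-base words with other genes, and 20 members shared under 1%. Besides Setd1a, the highest shares were 26.8% for Smyd2, 25.7% for Kdm3b and 14.4% for Suv39h1. The main partners of Smyd2 and Suv39h1 are annotated antisense genes, and whether strand was used in counting is not given in the sources used here.

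Levels spanned a wide range in wild-type cortex. In TPM, which is scaled per transcript length so that genes can be set side by side, the highest members over all transcripts were Kdm1a (232 ± 9.88, SD, n = 4), Ehmt2 (221 ± 5.03) and Kdm4b (119 ± 6.87). The lowest were Setdb2 (3.37 ± 0.902), Suv39h2 (6.45 ± 0.226) and Phf8 (10.9 ± 1.61). Counting only protein-coding transcripts, Kdm1a (196.8 ± 3.82) still led, followed by Ehmt2 (151.4 ± 8.88) and Kdm2b (92.9 ± 7.79), and these 3 were separated by more than their SDs. Of the Kdm1a TPM, 73.2 lay in Kdm1a-208, a short coding model of 965 bases, which is more than the gap between Kdm1a and Ehmt2. The next pair, Kdm4a (69.0 ± 3.85) and Smyd2 (66.8 ± 2.70), did not differ beyond their spread. Suv39h2 was last with 0.881 ± 0.0422 TPM.

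**Figure D4:**
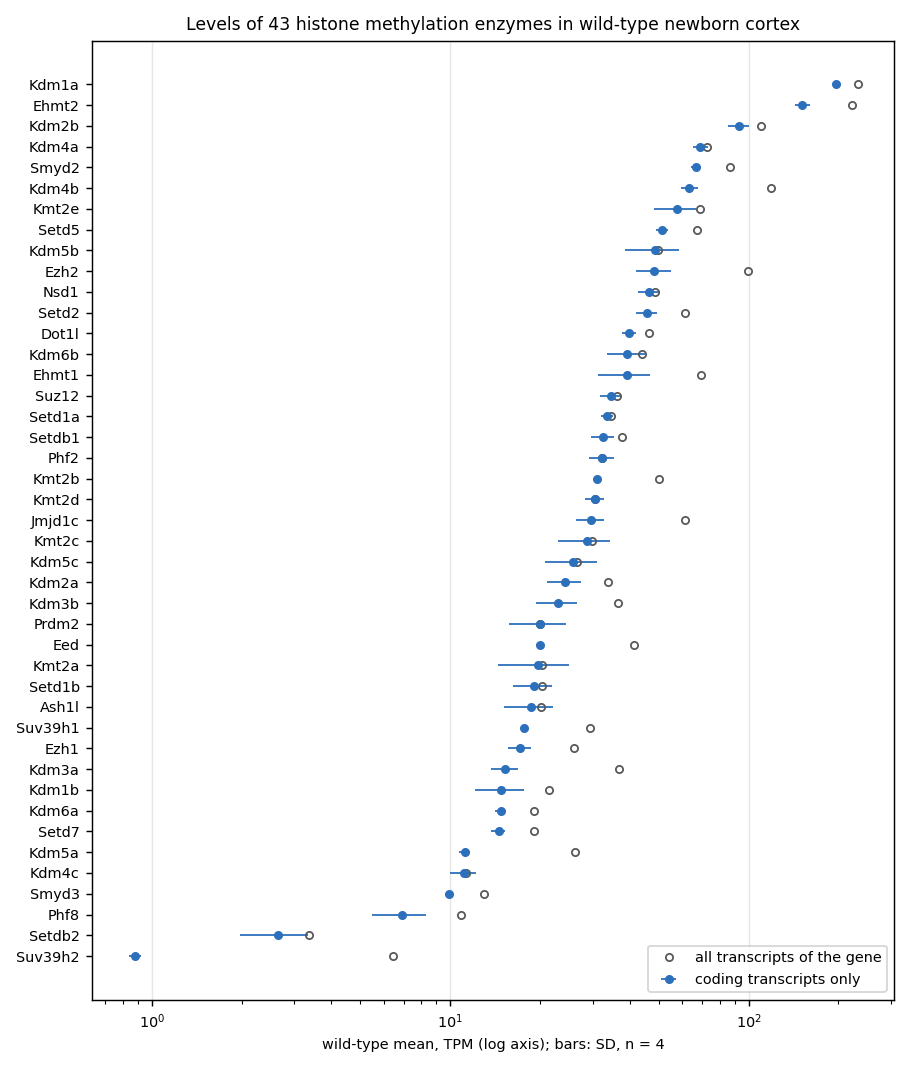
Wild-type mean TPM of the 43 members on a log axis, ordered by protein-coding transcripts (filled points, bars are SD, n = 4), with all transcripts of the gene as open circles. Kdm1a and Ehmt2 lead on both counts of TPM, and the gap between open and filled points is widest for Suv39h2, where 13.7% of the TPM is coding.

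The gap between both orders is the TPM of noncoding transcript models. In 15 members under 70% of wild-type TPM fell in transcripts typed protein-coding, and in 4 the leading transcript was not coding. Kdm4b-206, a processed transcript of 130 bases, held 46.5% of Kdm4b TPM in wild types while it received only 18 to 49 estimated reads per library. Of Ezh2 TPM, 48.6% was coding in wild types, and a retained-intron transcript of 500 bases, Ezh2-213, held 22.6%. A short model can carry a large TPM on few reads.

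Of the members' transcripts 237 were tested and none was called, where 8 of 55749 transcripts were called in all (0.0144%). At an unadjusted p under 0.05 there were 17 (13 below 0, 4 above), where 7.37% of all tested transcripts passed, and the smallest adjusted p was 0.671. The share of a gene's TPM in coding transcripts did not overlap between genotypes in 3 of 41 members with both kinds of transcript, each higher in mutants, against 3.38% of all such genes.

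For Eed the coding share was 59.3%, 64.3%, 66.5% and 57.6% in mutants and 50.7%, 43.9%, 46.5% and 53.6% in wild types. Its main coding transcript Eed-201 was higher in mutants (0.24 ± 0.09) and the short coding model Eed-205 (-0.72 ± 0.25) and the retained-intron model Eed-206 (-0.62 ± 0.21) were lower, each with an adjusted p of at least 0.671. DESeq2 with offsets for transcript length called Eed (-0.36, adjusted p = 0.0167; 431 genes, 2.87%, were called in that fit), although its CPM hardly differed. For Setd2 the share was 86.9%, 79.5%, 78.5% and 85.6% in mutants and 75.7%, 74.5%, 77.0% and 71.0% in wild types.

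For Suv39h2 it was 44.9%, 18.7%, 23.8% and 19.1% in mutants and 12.9%, 13.0%, 14.9% and 13.9% in wild types. Its leading transcript, Suv39h2-204, is typed as a target of nonsense-mediated decay and held 73.4% of the TPM in mutants and 86.3% in wild types. Mutant 1 alone had reads on another coding transcript, Suv39h2-203, at 1.34 TPM.

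**Figure D5:**
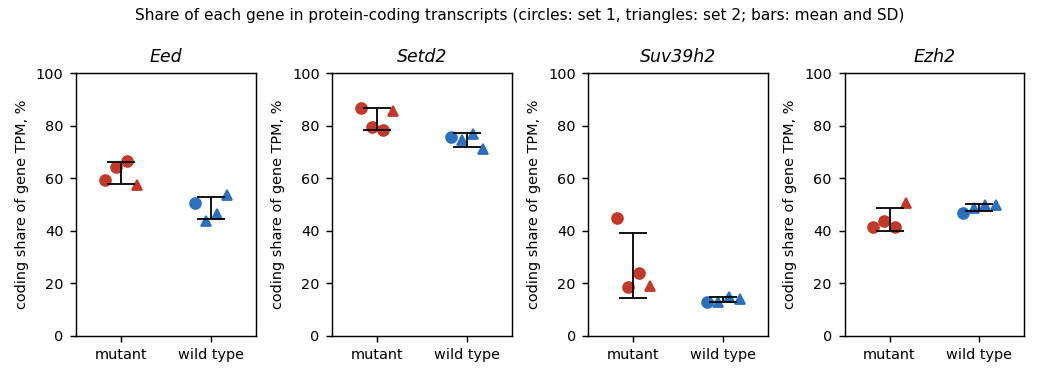
Percent of each gene's TPM in protein-coding transcripts, per library, for Eed, Setd2, Suv39h2 and Ezh2, with circles for set 1, triangles for set 2 and bars for mean and SD. Mutants lie above wild types without overlap for Eed, Setd2 and Suv39h2, with mutant 1 of Suv39h2 at 44.9% far from the other mutants, and the genotypes overlap for Ezh2.

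The members' promoters were read from RefSeq (GRCm38.p6), where 40 start sites of 31 members were found, and 250 bases upstream of each were scanned on both strands. Median GC content was 66.4% against 52.4% over all 32851 promoters, and the observed-over-expected ratio of CpG was 0.857 against 0.373. A GC box (GGGCGG) was present in 62.5% of member promoters and 32.7% of all, a CCAAT box in 12 of 40 and in 33.8%, and TATAAA in 0 of 40 and 12.4%. The E2F motif (TTTCCCGC, TTTCGCGC, TTTGGCGC or TTTGCCGC) was in 2 of the 40 (5.0%), against 1.86% of all. The comparison set holds promoters of genes whether or not they were expressed here, and it was not matched for GC content. The shares are therefore not shown to be particular to the members. These matches are letters in a window, not measured binding.

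The Suz12 window, chr11:79992856-79993105, plus strand, is shown because it held an E2F motif (219 bases upstream of the start), a CCAAT box and 3 GC boxes together, all in capitals. It lies directly before the annotated start of the gene.
Suz12: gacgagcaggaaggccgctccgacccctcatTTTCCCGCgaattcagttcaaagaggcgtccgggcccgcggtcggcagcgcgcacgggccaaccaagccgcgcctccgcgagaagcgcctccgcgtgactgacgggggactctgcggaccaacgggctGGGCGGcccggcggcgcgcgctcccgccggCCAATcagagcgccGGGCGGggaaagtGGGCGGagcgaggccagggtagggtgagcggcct
The other member promoter with an E2F motif was 1 of 2 of Suv39h1. Kdm6b, Kdm4b, Kdm3b, Nsd1, Kdm5a, Setd1b, Smyd3, Prdm2, Kdm2a, Kmt2e, Kmt2b and Ash1l had no entry.

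Other genes of the pathway gave no call either. Of 65 further genes found in 7 lists (other lysine and arginine methyltransferases, other demethylases, PRC2 accessory subunits, COMPASS subunits, H3K9 partners and LSD1 partners), 39 lay below 0 (60.0%, against 49.7% of all tested genes), with a median of -0.04. With library set as a term 47 lay below 0 (72.3%, against 51.5% of all tested genes), with a median of -0.05. None was called in either edgeR fit. At an unadjusted p under 0.05 there were 11 with genotype alone and 16 with library set, where 13.7% of all tested genes passed in each fit. Jarid2, which helps recruit PRC2, was at 60.0, 62.5, 62.2 and 65.2 CPM in mutants and at 71.2, 69.3, 66.4 and 68.6 CPM in wild types (-0.14 ± 0.05, adjusted p = 0.262), with no overlap. Rcor2, an LSD1 corepressor of neural progenitors, was at 55.3, 54.2, 59.1 and 78.8 CPM in mutants and at 65.8, 86.6, 84.5 and 92.7 CPM in wild types (-0.41 ± 0.13, adjusted p = 0.259).

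The smallest p of the other lists belonged to Prdm16 (-0.27, adjusted p = 0.266), Prmt1 (-0.10, adjusted p = 0.344), Riox2 (0.40, adjusted p = 0.252), Psip1 (-0.15, adjusted p = 0.266) and Cbx3 (-0.20, adjusted p = 0.271). Riox2 was the one of these 7 genes with a higher mean in mutants.

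Markers of other cell types were read in the same libraries. All 10 markers of dividing cells had fold changes below 0 with genotype alone (median -0.24; none called, 3 at an unadjusted p under 0.05, where 13.7% of all tested genes passed), and their median was -0.10 with library set as a term. Their summed level was between 203.5 and 282.7 CPM in mutants and between 268.9 and 296.1 CPM in wild types. The highest mutant sum was that of mutant 4, the library with the lowest Ezh2. In set 1, wild type 1 was above mutants 1 to 3 in both the sum and Ezh2. Whether the sum and Ezh2 vary together was not tested.

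For intermediate progenitors 4 of 5 markers were below 0, with sums of 74.7 to 103.1 CPM in mutants and 110.0 to 116.9 CPM in wild types. With library set as a term (0.602% of all tested genes called), Neurog2 and Insm1 of this list were called lower in mutants, as was Neurod6 of the 9 cortical neuron markers, 6 of which were below 0 with genotype alone. Aldh1a2 of the 5 meningeal markers was called higher in that fit.

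With genotype alone, radial glia markers were below 0 in 7 of 8 and interneuron markers in 5 of 7. Fold changes were above 0 in 7 of 7 markers of the oligodendrocyte lineage, 5 of 7 of astrocytes, 6 of 6 of microglia and macrophages, 5 of 6 of endothelium and pericytes, 4 of 5 of meninges, 4 of 4 of choroid plexus, 5 of 7 of hippocampus, striatum and thalamus, and 2 of 5 of blood. None of these was called with genotype alone, and no marker was at 0. In whole cortex, fewer cells of a type and less RNA per cell cannot be told apart, and the part of cell makeup in the members' values was not tested.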

How the data were processed

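RNA-seq libraries of newborn cortex (4 mutant, 4 wild-type) were analysed from the authors' quantifications. Per the file headers, each deposited library file gives for every transcript an estimated count (expected count) and a TPM, a level per effective length. Salmon 0.12.0, DESeq2 and GRCm38 are named in the submitters' processing notes; the use of strand is not given in the sources used here. For each gene the authors' deposited table, by its header, lists a mean normalized count (a signal level), the log2 fold change and its error, and both raw and adjusted p-values. Its model is not stated.

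Estimated counts were summed per gene identifier and rounded, and members were then found by symbol. Genotypes were compared over all 20097 genes that passed edgeR's default filter with edgeR 4.0.16 in R 4.3.3 (TMM, quasi-likelihood F test, two-sided, Benjamini-Hochberg adjusted p under 0.05 as a call). Standard errors came from the fold and its F statistic, and 95% intervals from the fit's degrees of freedom. A second fit held the library set, the sign of principal component 1 of log2 CPM over tested genes (prior count 2), as a term. Transcripts were tested likewise, the Ezh2 to Ezh1 ratio by exact permutation, and code was tested on simulated data. Coordinates and coding sequences are from GENCODE M21, which matched 99.0% of transcripts, and promoters from RefSeq. Every member is named. Values per library are given for members called in either edgeR fit, for the smallest p of each role group (2 in groups of 4 or more), for PRC2, for X-linked members and their Y partners, and for the 3 highest and 3 lowest members by TPM. The members and lists were chosen with earlier results of these data known. Alternatives were DESeq2 1.42.0, limma 3.58.1 (voom, and log2 TPM with a pseudocount of 1 or 0.1), other filters, length offsets, robust dispersion, a replicate block, X and Y genes left out and each library left out.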

Additional observations from a re-analysis of the deposited data

Results flagged for a closer look

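In 11 of 86 groups of 4 libraries (43 members, both genotypes), 1 library stood apart from the other 3 by more than Dixon's 95% limit. The groups share the same 8 libraries and so are not independent, and the share flagged over all tested genes is not given here. Of the 11 flagged, 7 were wild type 1 above the other wild types. Over all tested genes, wild type 1 was the highest wild type in 37.6%. The share was 64.1% in coding genes at least as long as the median member. Among H3K4 methyltransferases and relatives this held for Kmt2a (249.3 CPM, others 163.7 to 174.1), Kmt2d (160.6 CPM, others 135.0 to 137.6) and Kmt2e (279.2 CPM, others 225.6 to 234.5). Wild type 1 stood apart likewise for Setdb2 (5.75 CPM, others 3.95 to 3.98), Kdm6b (163.7 CPM, others 133.4 to 136.0), Phf2 (104.1 CPM, others 93.6 to 95.4) and Phf8 (30.8 CPM, others 24.0 to 25.0).

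Of the mutants, replicate 4 stood apart for Kdm1b (39.1 CPM, others 52.1 to 53.7) and for Kdm5a (75.0 CPM, others 56.6 to 59.6), where it was the high one. Replicate 1 was high for Eed (22.8 CPM, others 19.7 to 20.04) and replicate 2 for Smyd3 (37.6 CPM, others 33.1 to 33.5).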

How the results depend on the processing

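Over 30 alternatives, 1273 of 1285 member values kept their side of the threshold and 12 passed it, in 6 members, and no called value reversed. Uncalled values changed sign in 238 cases in 35 members. Genes called, 4 with genotype alone, numbered 401 in DESeq2, 431 in DESeq2 with length offsets, 13 without a filter, 20 with a replicate block, 0 with X and Y genes left out, 121 with library set and 14 with library set and length offsets. They ranged from 3 to 720 when 1 library was left out (720 without mutant 4, 13 without wild type 1). With library set they numbered 40, 21, 46 and 54 without mutants 1 to 4 and 20, 59, 68 and 130 without wild types 1 to 4. Members called numbered 1 in DESeq2 and with library set, 2 in DESeq2 with length offsets, 0 to 3 with 1 library left out and 0 or 1 with library set and 1 library left out. The other histone methylation genes had 0 to 4 calls with 1 library left out (4 without mutant 4, and 2 without it with library set) and 2 in DESeq2 with length offsets.

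The members' median, -0.0146 with genotype alone, was 0.0261 without wild type 1 and 0.0297 and 0.03 in limma on log2 TPM with a pseudocount of 1 and 0.1. It was -0.0707 with library set, -0.121 there without mutant 4, -0.0705 without wild type 3, -0.0757 without wild type 4 and -0.0097 without wild type 1. Transcripts called, 8 with genotype alone, numbered 363 in DESeq2, 0 with a replicate block and 1 with library set, and 0 to 11 with 1 library left out. The Ezh2 to Ezh1 difference was -0.03 on gene TPM (exact permutation p = 0.771) and -0.18 on CPM (exact permutation p = 0.114). In coding transcripts alone it was -0.28 (exact permutation p = 0.0286, and 0.0857 adjusted over the 3 forms). Same-numbered libraries correlated at 0.244, -0.027, -0.085 and 0.318 in their deviations, so the numbers were not taken as pairs, and the replicate block called 0 members. Alternatives that combined library set with another choice, DESeq2 with length offsets and coding transcripts alone were chosen after the data were seen. Every mutant library was shallower than every wild type, so low members such as Setdb2 were measured with fewer reads in mutants.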

Other observations

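Most members are long genes: their longest coding transcript had a median of 6363 bases, against 3187 bases over 15582 tested protein-coding genes. Wild type 1 was the highest wild type in 64.1% of the 1889 coding genes at least as long as the median member and in 37.1% of the 13693 shorter ones, beside 67.4% of members. Wild type 4 was the lowest in 56.0% and 26.5% of those genes, beside 62.8% of members.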
